A study of Mus musculus with 7 samples.

Results

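Ier2, Ier3, Ier5, Klf2, Klf4, Klf6, Atf3, Maff and Csrnp1 are 9 inducible genes, chosen by name. They code for nuclear and signalling proteins that many cell types make within minutes of a stimulus. All 9 were found by exact symbol among 22180 genes, each with a single probe set, and 9 of 9 had an Entrez identifier listed under the same symbol in the RefSeq gene table. Their probe sets were 17511130 (Ier2), 17337228 (Ier3), 17228349 (Ier5), 17502440 (Klf2), 17425401 (Klf4), 17285000 (Klf6), 17231033 (Atf3), 17312989 (Maff) and 17532257 (Csrnp1). They were followed in RNA bound to GFP-tagged ribosomes of mouse medial prefrontal cortex (mPFC), measured on 7 one-colour arrays. The tag was carried by mice with a Cre-dependent ribosome label crossed to a transgenic line with Cre under the control of Arc, an activity-regulated gene. Tamoxifen was present during the stimulus, so that cells active in that window became labelled, and an anti-GFP antibody then precipitated their ribosomes. The 4 cocaine arrays (numbered 4 to 7) came from mice given 15 mg/kg cocaine on 2 days, and the 3 shock arrays (numbered 4 to 6) from mice given 20 shocks of 2 s at 0.5 mA on 2 days. Both groups carried the label, the Cre line and tamoxifen. Mouse age, pooling of animals and the time between the last exposure and tissue collection are not stated in the labels, and RNA from before precipitation or from unlabelled mice was not analysed here. Nothing states that the arrays of a group came from separate animals, so p-values measure the spread between arrays, which may be technical.

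Immediate early genes need no new protein synthesis to be transcribed: calcium, cAMP and MAP kinase signals act on factors such as CREB and SRF that already sit at their promoters. Their products are mostly transcription factors or short-lived regulators that shape a later wave of transcription. Among the 9, the IER proteins are small regulators without a classical DNA-binding domain. The Krüppel-like factors (KLFs) are zinc finger proteins that bind GC-rich DNA, ATF3 and MAFF are basic leucine zipper proteins, and CSRNP1 is a nuclear protein with a cysteine- and serine-rich region. In brain, Klf2 and Klf4 are best known from endothelial cells, and Atf3 from injured neurons.

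The DNA before the transcription starts of 8 members was read from RefSeq (GRCm38.p6), 250 bases at each of 13 listed starts. Ier2 is named only. The full cAMP response element, the palindromic site of CREB and ATF proteins (TGACGTCA), was found at 1 of the 13 starts, the second listed start of Maff, 29 to 22 bases upstream, against 1.55% of all 32851 starts. The AP-1 site TGANTCA, bound by Fos and Jun dimers, had 2 matches at the fourth listed start of Csrnp1, where 6.75% of all starts had at least 1. CGTCA, a part of the cAMP response element, occurred at 9 of the 13 starts, in 5 genes (Atf3, Csrnp1, Klf2, Klf4 and Maff), against 17.77% of all starts. The GC box GGGCGG, a site of SP and KLF proteins, occurred in all 8 genes (9 of 13 starts), against 32.74% of all starts. The members' windows held 48.0% to 78.0% G and C, where the median over all starts was 52.4%, and GC-rich windows favour GC-rich motifs. The exact letters TATAAA, 1 form of the TATA box, and the CArG box of SRF had 0 matches at the 13 starts, against 12.37% and 1.47% of all starts. Other forms of the TATA box were not searched. The windows of Ier3, Ier5, Klf2 and Klf4 hold the near form TATAAG, whose share over all starts was not computed. Both strands were searched, and each full cAMP response element holds CGTCA on both strands. A match describes letters in a window and not a bound site.

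Of these windows, 4 are shown because they hold the full element (Maff), both AP-1 matches (Csrnp1), the short site CGTCA within 7 bases of the start (Atf3) or none of these (Klf6). Capitals mark the cAMP response element, CGTCA and the AP-1 matches. The windows are chr15:79347270-79347519 (plus strand) for Maff, chr9:119983024-119983273 (minus strand) for Csrnp1, chr1:191183334-191183583 (minus strand) for Atf3 and chr13:5861239-5861488 (plus strand) for Klf6.
Maff: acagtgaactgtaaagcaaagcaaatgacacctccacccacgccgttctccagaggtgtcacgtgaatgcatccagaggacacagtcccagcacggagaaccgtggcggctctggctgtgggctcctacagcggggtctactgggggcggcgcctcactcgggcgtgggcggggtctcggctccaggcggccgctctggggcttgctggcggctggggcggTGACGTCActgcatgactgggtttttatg
Csrnp1: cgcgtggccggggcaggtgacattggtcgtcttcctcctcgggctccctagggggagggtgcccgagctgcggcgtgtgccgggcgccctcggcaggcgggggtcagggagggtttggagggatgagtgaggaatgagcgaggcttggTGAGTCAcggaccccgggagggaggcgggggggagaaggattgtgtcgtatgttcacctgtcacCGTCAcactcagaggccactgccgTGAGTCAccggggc
Atf3: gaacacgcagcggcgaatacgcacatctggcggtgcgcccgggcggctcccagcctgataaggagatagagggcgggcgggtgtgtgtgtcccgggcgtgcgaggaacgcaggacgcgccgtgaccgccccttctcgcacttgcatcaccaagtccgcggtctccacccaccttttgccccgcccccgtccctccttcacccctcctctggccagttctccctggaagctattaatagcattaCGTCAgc
Klf6: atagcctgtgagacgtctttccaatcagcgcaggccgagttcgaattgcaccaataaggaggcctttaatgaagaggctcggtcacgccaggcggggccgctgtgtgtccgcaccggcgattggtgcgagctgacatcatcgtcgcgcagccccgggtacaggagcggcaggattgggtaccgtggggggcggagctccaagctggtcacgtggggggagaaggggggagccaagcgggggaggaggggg

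Values are the deposited log2 expression values, compared between arrays for 1 gene at a time. Probe sets differ in brightness, so levels of genes are not compared with each other, only with 1 common background level given below. A difference is the cocaine mean minus the shock mean in log2 units, tested by limma's moderated test over all genes (two-sided, Benjamini-Hochberg adjustment over the 22180). Cocaine array 6 stood apart from the rest, with a mean Euclidean distance of 37.2 to the other arrays, against 27.5 to 29.6 for each of the remaining 6. The means of all 9 members over the 7 arrays lay above 5.46, the level under which 95% of chemosensory receptor genes lay, although Ier2 and Maff lay close to it. Ier2 fell under that level on cocaine array 6 and shock arrays 4 and 6, and Maff on array 6 of both groups. Of 6 measured markers of excitatory neurons, 6 lay above 5.46 on average. Slc17a7, 1 of them, averaged 11.73 in the cocaine group and 11.65 in the shock group. So did 7 of 8 inhibitory, 8 of 8 astrocyte, 7 of 8 microglial, 7 of 7 oligodendrocyte and 12 of 13 vascular markers lie above 5.46. These counts thus do not single out 1 cell type.

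Between the cocaine and the shock group, no member was shown to differ. At an adjusted p under 0.05, 0 of the 9 members were called, as were 0.00% of all genes. At an unadjusted p under 0.05 the count was also 0 of 9, against 3.10% of all genes, and the groups overlapped for each member, whereas they did not overlap for 2.37% of all genes. Unadjusted p-values of the members ran from 0.178 for Atf3 to 0.791 for Csrnp1. The mean was higher in the cocaine group for 6 members (Ier2, Ier3, Ier5, Klf4, Atf3 and Maff) and lower for 3 (Klf2, Klf6 and Csrnp1). Over all genes 50.9% had a higher mean. The median difference of the members was 0.042, against 0.0016 over all genes. It was 0.0022 without shock array 4, 0.099 without cocaine array 6 and 0.11 without shock array 5.

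**Figure D1:**
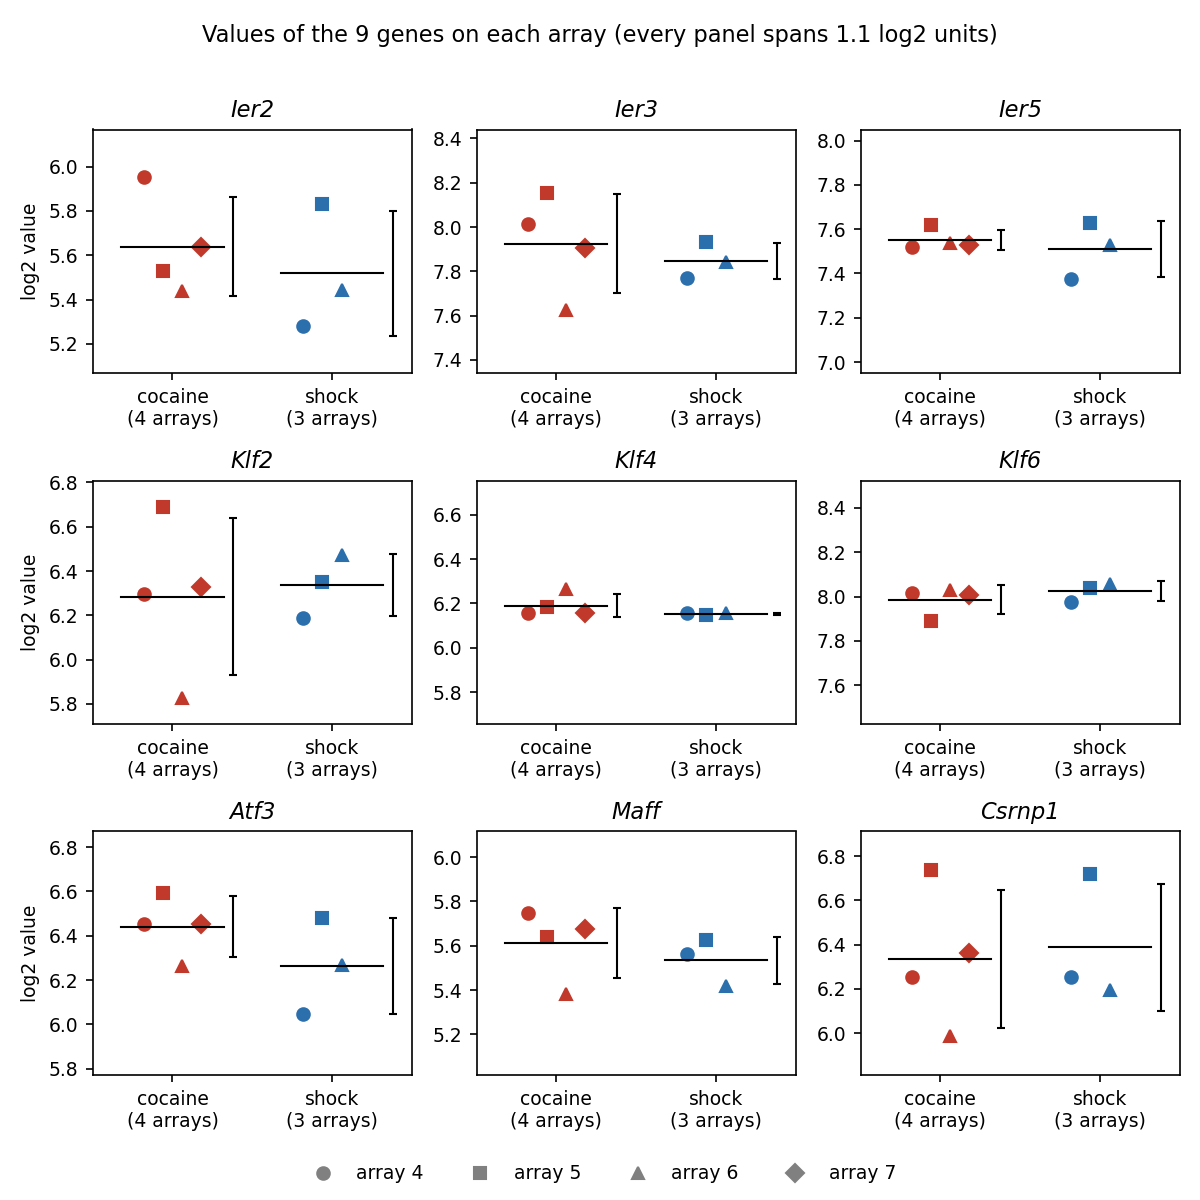
Log2 values of the 9 genes on each array, with the cocaine group left (red, 4 arrays) and the shock group right (blue, 3 arrays). Marker shapes give the array number, horizontal lines the group means and bars beside them ± 1 SD, and every panel spans 1.1 log2 units. Klf2 and Csrnp1 spread over 0.86 and 0.75, Klf4 over 0.12, and the groups overlap in every panel.

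Of the IER genes, Ier2, a nuclear regulator of the cell cycle and motility, had values of 5.95, 5.53, 5.44 and 5.64 on cocaine arrays 4, 5, 6 and 7, against 5.28, 5.83 and 5.44 on shock arrays 4, 5 and 6. One array in each group was high (cocaine array 4 and shock array 5), and the remaining values of both groups intermingled. The cocaine arrays averaged 5.64 ± 0.22 (SD, n = 4) and the shock arrays 5.52 ± 0.28 (SD, n = 3). The difference of 0.12 (SE 0.17) had a 95% interval of -0.27 to 0.515 and was not called (limma, adjusted p = 0.944). It was 0.0022 without shock array 4, 0.015 without cocaine array 4 and 0.28 without shock array 5.

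Ier3, a survival regulator of the NF-kB and ERK pathways, had 8.01, 8.15, 7.63 and 7.91 on the cocaine arrays, against 7.77, 7.93 and 7.84 on the shock arrays. The shock values all fell inside the range of the cocaine values, whose lowest was cocaine array 6. The difference was 0.077 (SE 0.12, limma, adjusted p = 0.949), with a 95% interval of -0.21 to 0.37. Leaving out cocaine array 6 gave 0.18, and leaving out cocaine array 5 gave 0.00034. Ier5, a regulator of heat shock factor HSF1, varied less, with 7.52, 7.62, 7.54 and 7.53 on the cocaine arrays and 7.37, 7.63 and 7.53 on the shock arrays. Shock array 4 was the lowest and shock array 5 the highest of all 7, so that the shock arrays enclosed the cocaine arrays. Cocaine array 7 and shock array 6 held the identical value 7.5287. The difference of Ier5 was 0.042 (95% interval -0.11 to 0.19, limma, adjusted p = 0.949), and it was -0.026 without shock array 4.

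The 3 KLF genes did not behave alike across arrays. Klf2, a factor that keeps endothelium quiescent under blood flow, had 6.29, 6.69, 5.83 and 6.33 on the cocaine arrays, against 6.19, 6.35 and 6.47 on the shock arrays. Cocaine arrays 5 and 6 were the highest and the lowest of all 7, and the shock arrays lay between them. The cocaine arrays averaged 6.28 ± 0.35 (SD, n = 4) and the shock arrays 6.34 ± 0.14 (SD, n = 3). The difference of -0.053 (SE 0.19, 95% interval -0.51 to 0.40) was not called (limma, adjusted p = 0.976). It was 0.099 without cocaine array 6, 0.014 without shock array 6 and 0.054 when arrays were weighted by their quality.

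Klf4, a factor of pluripotent cells and vessel walls, varied least, with 6.16, 6.18, 6.26 and 6.16 on the cocaine arrays and 6.16, 6.15 and 6.16 on the shock arrays. Its 7 arrays held 4 distinct values, and cocaine array 6 was the highest. Cocaine arrays 4 and 7 and shock arrays 4 and 6 held the identical value 6.1559. The small spread and narrow interval of Klf4 rest partly on these ties, whose origin is not known. The difference was 0.037 (SE 0.038), with a 95% interval of -0.053 to 0.13 (limma, adjusted p = 0.938), or 0.96- to 1.09-fold. Klf6, which is induced after injury and is needed for axon growth in zebrafish retina, had 8.02, 7.89, 8.03 and 8.01 on the cocaine arrays and 7.98, 8.04 and 8.06 on the shock arrays. Cocaine array 5 was the lowest and the others lay within a narrow band. The difference was -0.040 (SE 0.047) with a 95% interval of -0.15 to 0.071 (limma, adjusted p = 0.938), and it was -0.0074 without cocaine array 5.

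Atf3, a stress-induced repressor and activator of transcription, had the largest difference of the 9. Its values were 6.45, 6.59, 6.26 and 6.45 on the cocaine arrays, against 6.05, 6.48 and 6.27 on the shock arrays. Cocaine arrays 4 and 7 held the identical value 6.4541, a tie of unknown origin. Shock array 4 was the lowest, and shock array 5 lay above every cocaine array but array 5. The cocaine arrays averaged 6.44 ± 0.14 (SD, n = 4) and the shock arrays 6.27 ± 0.22 (SD, n = 3), a difference of 0.18 (SE 0.12) or 1.13-fold. Its 95% interval of -0.10 to 0.45 held 0 (limma, adjusted p = 0.938). Leaving out shock array 4 gave 0.067, and leaving out shock array 5 gave 0.28, where the unadjusted p was 0.0422 and the adjusted p 0.9425 (limma).

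Maff, a small MAF protein that lacks an activation domain and pairs with NRF2 or BACH1, had 5.75, 5.64, 5.38 and 5.67 on the cocaine arrays, against 5.56, 5.63 and 5.42 on the shock arrays. Array 6 was the lowest in both groups, and 3 cocaine arrays lay above all shock arrays. The difference was 0.076 (SE 0.096) with a 95% interval of -0.15 to 0.30 (limma, adjusted p = 0.94). It was 0.15 without cocaine array 6, 0.030 without cocaine array 4 and 0.017 without shock array 6.

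Csrnp1, known in human cells as a gene induced by AXIN1, had 6.25, 6.74, 5.99 and 6.36 on the cocaine arrays, against 6.25, 6.72 and 6.20 on the shock arrays. Array 5 was the highest in both groups and array 6 the lowest in both. Cocaine arrays averaged 6.33 ± 0.31 (SD, n = 4) and shock arrays 6.39 ± 0.29 (SD, n = 3), which gave a difference of -0.055 (SE 0.20). The 95% interval was -0.53 to 0.42 (limma, adjusted p = 0.976). The sign turned without cocaine array 6 (0.061) and without shock array 5 (0.11).

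**Figure D2:**
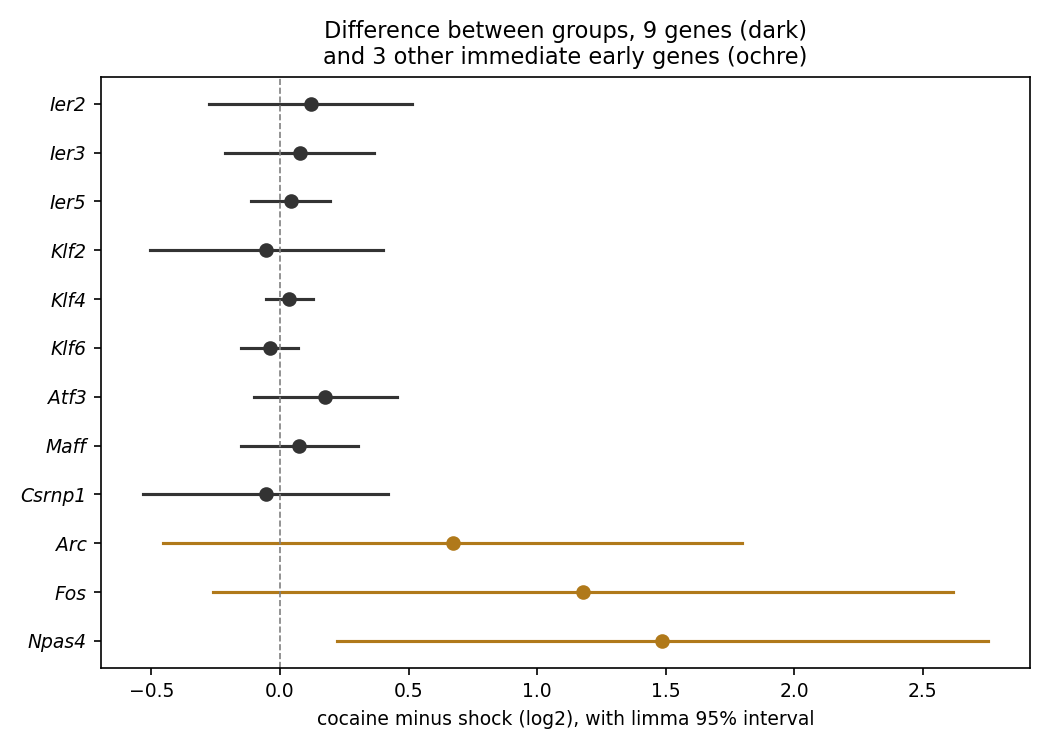
Cocaine minus shock difference (log2, horizontal axis) of the 9 genes (dark) and of Arc, Fos and Npas4 (ochre), with limma's 95% interval as a line. The 9 points lie between -0.055 and 0.18 and all 9 intervals hold 0, whereas Fos lies at 1.18 and Npas4 at 1.49 with far wider intervals. Of 15 other immediate early genes, whose differences ran from 0.040 to 1.49, only Arc, Fos and Npas4 are drawn.

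The members differed in how much they varied within groups. By the within-group SD, Csrnp1 (0.30), Klf2 (0.29), Ier2 (0.25), Ier3 (0.18) and Atf3 (0.17) stood in the upper part of all genes, at the 96.3rd, 95.6th, 93.2nd, 84.1st and 82.6th percentile. Maff (0.14) stood at the 72.8th and Ier5 (0.088) at the 46.6th. Klf6 (0.057) and Klf4 (0.040) lay at the 24.3rd and 12.2nd percentile. The median within-group SD over all genes was 0.093. In all 9 members the range over the cocaine arrays exceeded the size of the group difference. For 8 so did the range over the shock arrays, with Klf4 as the exception. The matching shares over all genes were not computed, so these counts do not set the members apart.

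Much of that variation ran between arrays of the same group. Cocaine array 5 lay above cocaine array 6 for 7 members, by 0.86 for Klf2, 0.75 for Csrnp1 and 0.53 for Ier3, and below it for Klf4 and Klf6. Shock array 5 lay above shock array 4 for 8 members, by 0.55 for Ier2, 0.47 for Csrnp1 and 0.43 for Atf3, and 0.0093 below it for Klf4. The Ier2 value on shock array 4 (5.28) was under the level of 5.46. The mean deviation of the 9 genes from their own means was 0.068, 0.14, -0.16 and 0.028 on cocaine arrays 4, 5, 6 and 7, against -0.13, 0.11 and -0.047 on shock arrays 4, 5 and 6. Cocaine array 6 and shock array 4 were thus the lowest for the group of genes, and array 5 was the highest in both groups.

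A list of 15 other immediate early genes, among them Fos, Arc and Npas4, was also highest on array 5 of each group and low on cocaine array 6 and shock array 4, with shock array 6 as low. Their mean deviation was 0.37, 0.57, -0.25 and 0.27 on the cocaine arrays, against -0.68, 0.45 and -0.72 on the shock arrays. The median excess of shock array 5 over shock array 4 was 0.16 for the 9 members, against 1.08 for the 15, all of which were higher on array 5. That of cocaine array 5 over cocaine array 6 was 0.25 for the members, against 0.79 for the 15, again all higher on array 5. The mean of these other genes was higher in the cocaine group for 15 of 15, with a median difference of 0.50, and 2 (Npas4 and Btg2) had an unadjusted p under 0.05 (limma, adjusted p = 0.938 for both). Fos differed by 1.18 and Arc by 0.67. The differences of the 15 ran from 0.040 for Nr4a3 to 1.49 for Npas4. Those of Nr4a3, Egr3 (0.092) and Nr4a2 (0.12) lay within the range of the members, -0.055 to 0.18. The 95% interval of each of the 9 members ended at or below 0.515, under the Fos value, although the Fos interval itself ran from -0.26 to 2.62. The difference between the lists was not tested.

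**Figure D3:**
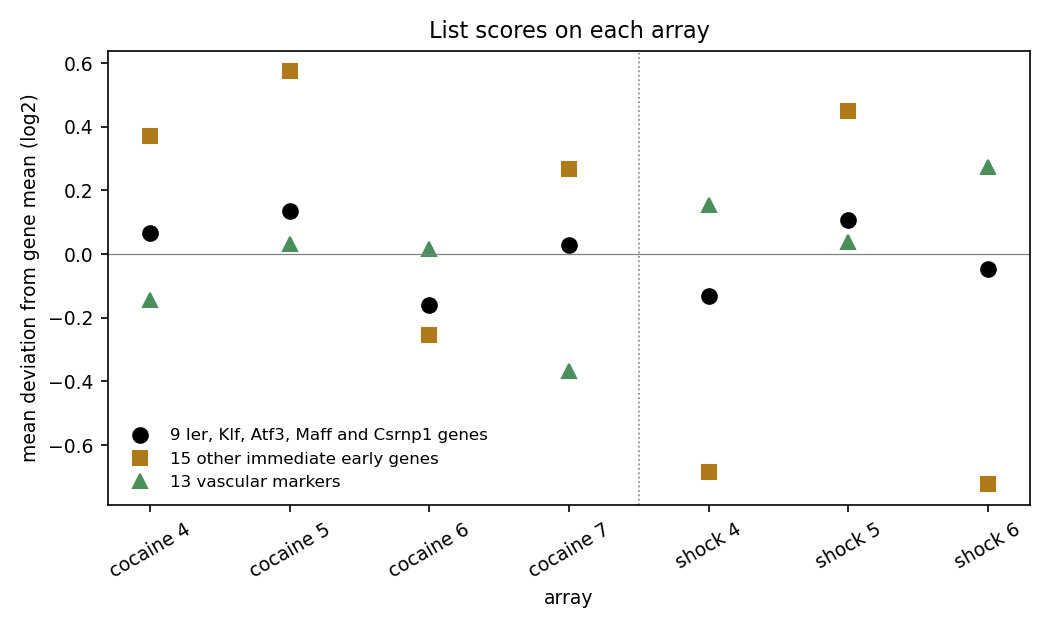
Mean deviation of each list's genes from their own means over the 7 arrays (log2, vertical axis) on each array, with cocaine arrays left and shock arrays right of the dotted line. The 9 genes (black circles) span -0.16 to 0.14, the 15 other immediate early genes (ochre squares) -0.72 to 0.57, and the 13 vascular markers (green triangles) -0.37 to 0.27.

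Because Klf2 and Klf4 are used by endothelium, and Ier and Atf3 genes by glia as well as neurons, markers of other cells are given beside them. Of 13 vascular markers, 13 had a lower mean in the cocaine group (median difference -0.27), and 4 had an unadjusted p under 0.05 (limma; adjusted over all genes, 0). Their mean deviation was -0.14, 0.030, 0.017 and -0.37 on cocaine arrays 4 to 7, against 0.15, 0.038 and 0.27 on the shock arrays. Klf2 was highest on cocaine array 5 and lowest on cocaine array 6, 2 arrays with nearly equal vascular scores, while shock array 6, with the highest vascular score, held the second-highest Klf2 value. All 8 astrocyte markers were lower in the cocaine group (median -0.17, from -0.23 to -0.032), as were 5 of 8 microglial ones (median -0.066), and 0 of them had an unadjusted p under 0.05 (limma). In precipitated RNA of mixed cells, fewer cells of a type and less RNA per cell cannot be told apart, and the part of these cells in the members' values was not tested.

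Endothelial genes known to be under Klf2 and Klf4 control were not called either. S1pr1, a sphingosine phosphate receptor, had 9.12, 9.43, 9.46 and 8.97 on the cocaine arrays, against 9.43, 9.50 and 9.61 on the shock arrays, a difference of -0.27 (SE 0.13, limma, adjusted p = 0.938). Thbd, the thrombomodulin gene, differed by -0.070 and Nos3, the endothelial nitric oxide synthase gene, by -0.058. Among 21 measured partners and targets of these factors, 10 were higher and 11 lower in the cocaine group, with a median of -0.0088, and 1 had an unadjusted p under 0.05. That was Srxn1, the sulfiredoxin gene of the NRF2 response, with 8.63, 8.64, 8.66 and 8.63 on the cocaine arrays, against 8.47, 8.60 and 8.51 on the shock arrays. Its groups did not overlap and differed by 0.11 (SE 0.039), which did not pass the adjustment (limma, adjusted p = 0.938). Nqo1, a detoxifying enzyme gene of the same response, lay under 5.46 on average, with 5.38, 5.38, 5.29 and 5.38 on the cocaine arrays, against 5.38, 5.38 and 5.63 on the shock arrays. Its difference of -0.10 rested on shock array 6, the 1 array above the rest.

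The constitutive and inducible relatives of the members spread around 0. Of 34 listed genes, 32 were measured, 20 with a higher and 12 with a lower mean in the cocaine group, and their median difference was 0.014. One, the leucine zipper gene Batf2, had an unadjusted p under 0.05, with a difference of -0.14 (SE 0.056, limma, adjusted p = 0.938), and its relative Batf differed by -0.11 (adjusted p = 0.938 by limma). Klf11 differed by 0.15 and Nrl, a retinal MAF gene, by -0.095. Klf10, a TGF-beta-inducible KLF, had 7.66, 8.07, 7.23 and 7.53 on the cocaine arrays, against 7.40, 7.79 and 7.52 on the shock arrays. Like Klf2 it was highest on cocaine array 5 and lowest on cocaine array 6, and its difference was 0.057. Klf9, a glucocorticoid- and thyroid hormone-responsive KLF, differed by 0.050, Ier5l by 0.029, Jdp2 by 0.019, Mafg by -0.015, Csrnp2 by 0.034, Csrnp3 by 0.062 and the stress factor gene Atf4 by 0.075.

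No regulator that acts before the members was called. Of 25 listed kinases, coactivators and transcription factors, 19 were measured, 7 higher and 12 lower in the cocaine group, with a median of -0.016 and differences from -0.090 to 0.075. At an unadjusted p under 0.05 there were 0 (limma). Srf, the gene of the serum response factor, had 8.75, 8.71, 8.61 and 8.67 on the cocaine arrays, against 8.54, 8.72 and 8.57 on the shock arrays, and differed by 0.069. Its partner gene Elk3 differed by -0.090, the MAP kinase kinase gene Map2k1 by 0.075, the nuclear kinase gene Rps6ka5 by 0.064 and the CREB coactivator gene Crtc3 by -0.072.

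The genes whose profile over the 7 arrays lay closest to the mean profile of the 9 members, by root mean square distance of centred log2 values among 13760 genes above 5.46, were Zcchc2 (0.034), Bdnf (0.037), Fcgr3 (0.039), Klf5 (0.040) and Csrnp2 (0.043). The members themselves lay at 0.070 (Ier3) to 0.18 (Klf2) from that mean. Bdnf, the neurotrophin gene, had 6.53, 6.66, 6.38 and 6.55 on the cocaine arrays, against 6.44, 6.64 and 6.53 on the shock arrays. Klf5 had 7.65, 7.81, 7.50 and 7.61 on the cocaine arrays, against 7.51, 7.76 and 7.65 on the shock arrays. In both, cocaine array 6 was the lowest of all 7 and array 5 the highest in each group, an order favoured by choosing them for nearness. The differences between groups were -0.0061 for Bdnf and 0.0010 for Klf5.

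**Figure D4:**
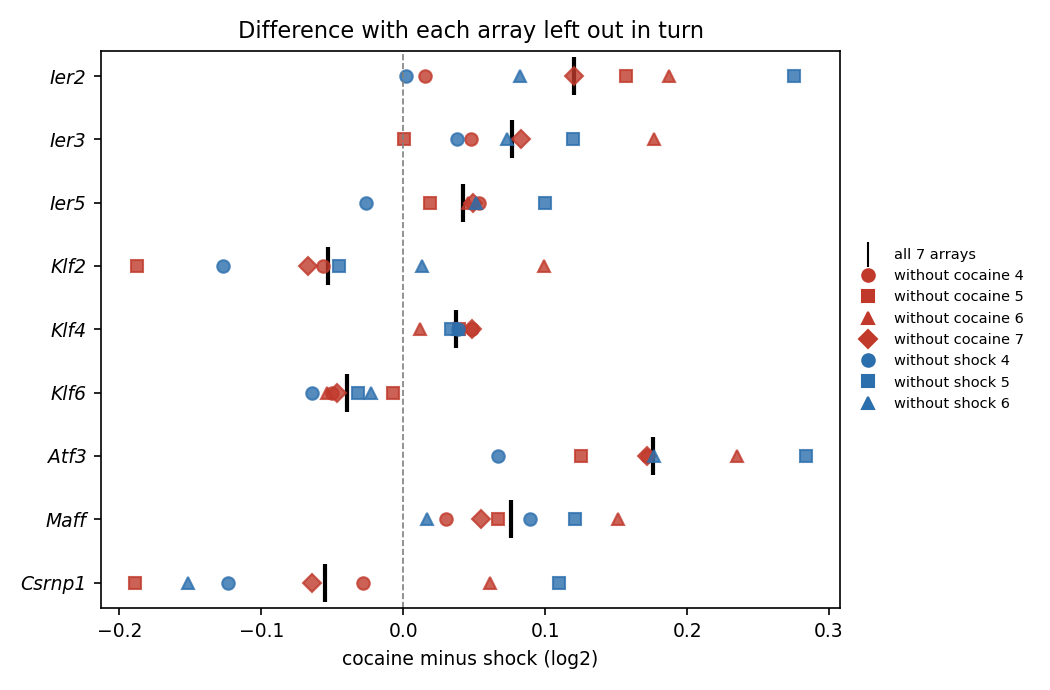
Cocaine minus shock difference (log2, horizontal axis) of each of the 9 genes with all 7 arrays (black bar) and with each array left out in turn (red for cocaine, blue for shock arrays, shapes for array numbers). Klf2 ranges from -0.19 to 0.099, Csrnp1 from -0.19 to 0.11, Ier2 from 0.0022 to 0.28, and Klf4 and Klf6 stay within a narrow band on 1 side of 0.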

How the data were processed

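Ribosome-bound RNA was measured on 7 one-colour Affymetrix arrays. The deposited values were taken as log2 expression values, a scale read from their range of 1.12 to 13.44. Transcriptome Analysis Console is the tool listed in the submitters' processing notes; summarization and normalization steps, not given in the sources used here, are unknown. Quartiles were nearly equal between arrays, so a difference is relative to all probe sets. Ties were frequent: 55.9% of the 41345 probe sets repeated a value between arrays. Arrays have no read depth, and their number limits the precision.

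Probe sets with 1 gene symbol (23521) were named through the platform annotation, and the one with the highest mean was kept per gene. The other probe sets had several symbols (1814) or were not listed (16010). Groups were fitted on the 7 arrays without covariates by lmFit and eBayes (limma 3.58.1, R 4.3.3), adjusted by Benjamini-Hochberg at 0.05, and the scripts were tested on simulated data. Alternatives left out each array or dim genes, or used 2 other normalizations, the mean of probe sets, trend and robust moderation, array weights or a replicate block. Named genes were the members, fixed relatives, up to 4 genes of smallest p per list and the 5 nearest profiles. Slc17a7, Btg2, Nr4a3, Egr3, Nr4a2, Olig2, the details of Bdnf and Klf5 and the printed promoters were picked after values were seen. The members and lists were chosen with earlier results of these data known. Of 8 inhibitory, 7 excitatory, 8 oligodendrocyte and 4 blood markers, 8, 6, 7 and 0 were measured, with median differences of -0.10, 0.011 and 0.057 for the first 3 lists. The mean was lower in the cocaine group for 6 inhibitory, 2 excitatory and 2 oligodendrocyte markers. Of these lists only Olig2, an oligodendrocyte marker, had an unadjusted p under 0.05 (limma, adjusted p = 0.938). It differed by -0.16, and its groups did not overlap.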

Additional observations from a re-analysis of the deposited data

Results flagged for a closer look

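Among the 4 cocaine arrays, Klf6 was lowest on array 5 (7.89, against 8.01 to 8.03 on the others), and its gap to the next array took 0.849 of the group's range. For the mean distance to the other arrays, that gap was 0.975 for cocaine array 6. Both passed Dixon's 95% limit for 4 samples, which chance passes in about 1 in 20 groups of independent, normally distributed values. The mean distances share pairs of arrays and are not independent, so that rate does not hold for them. In all 21 measures were tested, and the shock group, with 3 arrays, was not.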

How the results depend on the processing

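Under 15 alternatives 0 genes passed limma's adjusted p of 0.05. The smallest adjusted p of a member was 0.8705, and the smallest unadjusted p was 0.0422 (Atf3 without shock array 5). The genes at an unadjusted p under 0.05 numbered 688, or 450 with dim genes left out, where fewer genes were tested, or 531 to 788 when 1 array was left out. With 1 array left out, 5 to 8 members had the higher mean in the cocaine group and the median ranged from 0.0022 to 0.11. Of 135 differences recomputed for the members, 6 changed sign. Not all of them could change. Each member has 1 probe set and none is dim, so the mean of probe sets, leaving out dim genes and the other moderation returned the main differences. The replicate block, the same arrays without it and leaving out cocaine array 7 gave the same differences as each other. Ier5 ranged from -0.026 to 0.10, Klf2 from -0.19 to 0.099 and Csrnp1 from -0.19 to 0.11 with 1 array left out, and Klf2 was 0.054 with array weights. The cause was not tested. Quantile normalization turned no member's sign. Median centring moved the differences of all members by the same amount, which was too small to turn a sign.

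The labels name no batch that same-numbered arrays of the groups would share. The correlations of their deviations over all genes were 0.13, 0.064 and 0.16 for numbers 4, 5 and 6. Pairs with different numbers had -0.12 to 0.090. Whether equal numbers mark a shared batch was not tested. With the number as a replicate block on the 6 arrays numbered 4, 5 and 6, 915 genes had an unadjusted p under 0.05 (limma). Without the block there were 531 on the same arrays, a comparison added after seeing the data. On these arrays each number occurs once in each group, so the block could change p-values but not the differences. The members' median of 0.049 and the 6 members with a higher mean were therefore the same in both fits.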
